A study of Homo sapiens with 12 samples.

Results

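The genes described here are 10 human genes of the feedback arm of ERK signalling and of the transcription factors that act at its end, namely the dual-specificity phosphatases DUSP1, DUSP4, DUSP5, DUSP6 and DUSP10, the inhibitors SPRY2, SPRY4 and SPRED2, and the factors ELK3 and EGR1. DUSP4 and ELK3 were selected on their large changes in the HepG2 libraries, and the others were chosen by family and pathway role around them. DUSP10 was included by family, as it acts mainly on the related kinases JNK and p38. All 10 are among the 8842 genes listed in the deposited tables. The HepG2 comparison is therefore given for these genes as a description with no test, whereas the LM3 comparison, whose values the selection of DUSP4 and ELK3 did not name, is tested. Earlier results of both lines were known when the 10 genes and the wider list were drawn up. The question asked of them is whether the changes of DUSP4 and ELK3 belong to a wider set of ERK feedback genes that change with them.

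Gene expression was measured by RNA-seq in the HepG2 and LM3 lines, long-cultured cells derived from human liver tumours. Each line was transfected with an siRNA against the long noncoding RNA FASRL (siFASRL) or with a negative control siRNA (siNC), and RNA was harvested after 48 h. The 4 groups held 3 replicates each, which makes 12 libraries, and no source says that replicates were separate cultures, so p-values measure the spread between these libraries only. FASRL itself is not among the listed genes, so its knockdown was not measured here. The values are the authors' normalized expression levels per gene length, they are not counts, and the depth of the libraries is unknown. Summed over the listed genes they came to between 333193 and 355094 in HepG2 libraries and between 316534 and 348573 in LM3 libraries.

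ERK is the last kinase of the cascade that runs from growth factor receptors through RAS, RAF and MEK. Active ERK enters the nucleus and phosphorylates ETS factors such as the ELK proteins, which bind with SRF in front of immediate-early genes, EGR1 among them. The same signal raises transcripts of its own inhibitors: dual-specificity phosphatases, which remove phosphate from ERK and related kinases, and Sprouty and SPRED proteins, which act near the receptor and RAS. The cascade is often active in liver cancer, and HepG2 is known to carry an activating NRAS mutation.

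Promoters are shown for EGR1 and DUSP1, which are among the genes whose transcripts were higher after siFASRL in both lines. Of the 10 genes, 8 have an entry in the RefSeq promoter table (GRCh38.p14), with 13 promoters among them, and the 250 bases before each gene start were searched on both strands. DUSP4 and DUSP5 have no entry and were not searched. EGR1 starts on the plus strand of chromosome 5 and the window lies at chr5:138465229-138465478. DUSP1 is read from the minus strand and its window lies at chr5:172771196-172771445. Capitals mark the CArG box, the site of SRF, and the letters TGACG on either strand, the core of the site of CREB and ATF factors.
EGR1: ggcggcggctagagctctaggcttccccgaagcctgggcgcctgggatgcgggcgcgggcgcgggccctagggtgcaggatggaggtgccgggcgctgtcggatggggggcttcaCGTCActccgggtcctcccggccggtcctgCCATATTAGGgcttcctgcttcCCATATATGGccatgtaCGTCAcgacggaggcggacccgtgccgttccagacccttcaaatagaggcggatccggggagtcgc
DUSP1: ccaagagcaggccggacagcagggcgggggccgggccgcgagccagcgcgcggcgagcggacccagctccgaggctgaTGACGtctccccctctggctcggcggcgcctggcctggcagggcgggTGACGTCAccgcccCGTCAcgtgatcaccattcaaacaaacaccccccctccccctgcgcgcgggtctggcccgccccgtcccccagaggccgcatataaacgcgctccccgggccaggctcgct

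The EGR1 window holds 2 CArG boxes and 2 copies of TGACG. At least 1 CArG box is found in 1.16% of the 35116 promoters in the table, and at least 1 TGACG in 21.2%. The DUSP1 window holds no CArG box and 4 matches to TGACG, of which a pair overlap within the palindrome TGACGTCA, found in 1.65% of promoters. None of the other 11 promoters searched holds a CArG box or TGACGTCA, and TGACG occurs once in the SPRY4 window and once in 1 window of SPRY2. Among them are the windows of DUSP10 and SPRY2, whose transcripts were also higher after siFASRL in both lines. The ETS letters CCGGAA, found in 14.5% of promoters, occur in 1 window of SPRY2, and AGGAAG, found in 28.7%, occurs in a window of every matched gene except SPRY4 and DUSP1. The AP-1 letters TGANTCA, found in 6.57%, occur in none of the 13. A match describes these letters only and does not show a bound site.

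Among the 5 phosphatases named at the start, the nuclear enzymes DUSP1, DUSP4 and DUSP5 had the largest LM3 differences. DUSP1, which acts on p38 and JNK as well as ERK, had values of 62.18, 73.39 and 59.86 in HepG2 siNC and 213.12, 278.30 and 268.70 in HepG2 siFASRL. In LM3 its values were 19.96, 28.68 and 27.83 with siNC and 87.90, 84.24 and 86.37 with siFASRL. The groups do not overlap in either line, and the lowest LM3 siNC value is that of replicate 1. The ratio of group means was 3.89 in HepG2 and 3.38 in LM3. On the log2(value + 1) scale the LM3 difference was 1.74 (SE 0.12, limma adjusted p = 4.03e-06), the 10th highest of 7483 tested genes.

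DUSP4, a nuclear phosphatase of ERK and JNK whose HepG2 values prompted the choice, was listed at 1.24, 1.33 and 1.15 in HepG2 siNC and at 10.41, 11.04 and 10.48 in HepG2 siFASRL. In LM3 it was listed at 7.66, 8.67 and 9.55 with siNC and at 22.50, 20.25 and 21.11 with siFASRL. The LM3 siNC values lie just below the HepG2 siFASRL values, and the LM3 siFASRL values lie above both. The ratio of means was 8.58 in HepG2 and 2.47 in LM3, with an LM3 log2 difference of 1.21 (SE 0.078, limma adjusted p = 2.86e-06). The level in bulk RNA does not tell more transcript in every cell from more cells that carry it, and this holds for each gene here.

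DUSP5, an ERK-specific nuclear phosphatase, was listed at 9.34, 10.09 and 8.11 in HepG2 siNC and at 44.12, 42.57 and 43.97 in HepG2 siFASRL. In LM3 it rose from 17.98, 17.10 and 17.87 to 49.06, 45.17 and 47.68. The LM3 and HepG2 libraries came to similar siFASRL levels from siNC levels that differed by a ratio of 1.92. The LM3 log2 difference was 1.37 (SE 0.053, limma adjusted p = 3.22e-07).

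DUSP10 acts mainly on JNK and p38. It was listed at 2.79, 2.97 and 3.06 in HepG2 siNC and at 3.98, 4.19 and 4.35 in HepG2 siFASRL, a ratio of means of 1.42 and a log2 difference of 0.39, or 0.67 after quantile normalization. In LM3 it was listed at 1.74, 1.61 and 1.92 with siNC and at 3.77, 3.90 and 3.98 with siFASRL, a ratio of 2.21. The groups do not overlap in either line. Its LM3 log2 difference was 0.83 (SE 0.057, limma adjusted p = 3.88e-06).

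DUSP6, the cytoplasmic ERK phosphatase often used as a readout of ERK activity, stood apart from the other phosphatases. It was listed at 9.65, 10.17 and 7.84 in HepG2 siNC and at 9.32, 10.80 and 10.48 in HepG2 siFASRL, so the groups overlap. The HepG2 log2 difference was 0.14, or 0.04 without HepG2 siNC replicate 3 and 0.24 after quantile normalization. In LM3 it was low, at 0.92, 0.89 and 1.31 with siNC and 1.68, 1.17 and 1.47 with siFASRL, and the groups overlap there too. Only genes that reached 1 in 3 or more libraries of a fit were tested, and DUSP6 did so mainly through the siFASRL libraries. Its LM3 log2 difference was 0.26 (SE 0.10, limma adjusted p = 0.0404). This call was lost without LM3 siFASRL replicate 1 (adjusted p = 0.148) or 3 (0.108), without LM3 siNC replicate 1 (0.0734) or 2 (0.118), and with no filter on low values (0.0569), while quantile normalization gave a difference of 0.68 (0.000628) and a pseudocount of 0.1 gave 0.44 (0.0408). An antisense gene overlaps exons of DUSP6, another overlaps exons of ELK3, and since use of strand in counting is not stated, reads of each pair cannot be told apart.

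**Figure D1:**
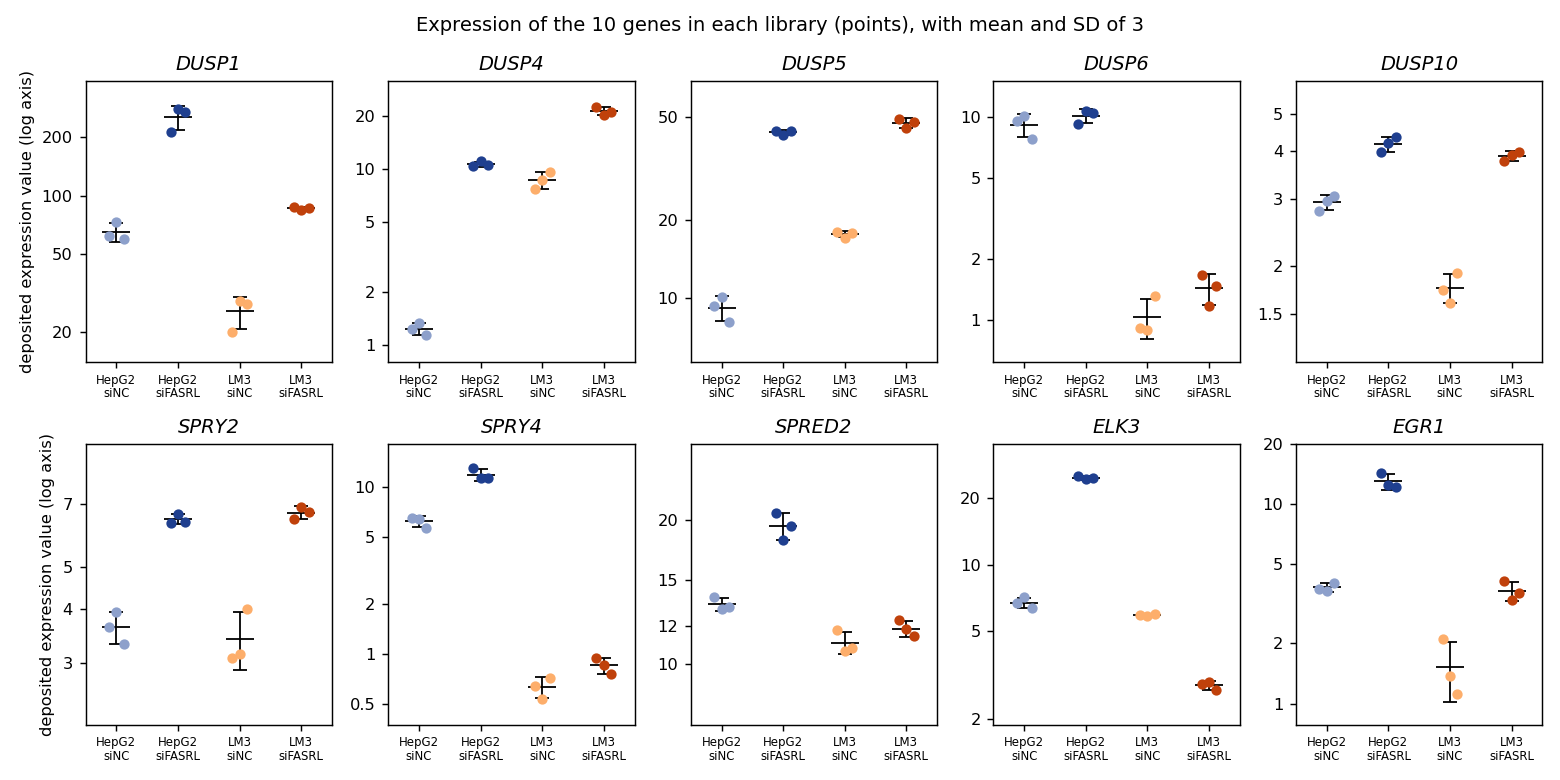
Deposited expression value (log axis) of each of the 10 genes in the 12 libraries, with points for libraries and bars for the mean and SD of 3 replicates in HepG2 siNC, HepG2 siFASRL, LM3 siNC and LM3 siFASRL. DUSP4 in HepG2 lies at 1.15 to 1.33 with siNC and 10.41 to 11.04 with siFASRL, and ELK3 is higher with siFASRL in HepG2 and lower in LM3.

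The Sprouty proteins restrain signalling from receptor tyrosine kinases. SPRY2 was listed at 3.64, 3.93 and 3.31 in HepG2 siNC and 6.35, 6.67 and 6.38 in HepG2 siFASRL, and at 3.08, 3.14 and 4.01 in LM3 siNC and 6.46, 6.92 and 6.72 in LM3 siFASRL. The siFASRL values of both lines lie above every siNC value, with ratios of means of 1.78 and 1.96, and the LM3 log2 difference was 0.81 (SE 0.082, limma adjusted p = 3.07e-05). SPRY4 was listed at 6.53, 6.43 and 5.67 in HepG2 siNC and 12.93, 11.25 and 11.30 in HepG2 siFASRL, a ratio of 1.90. In LM3 it did not reach 1 in any library, at 0.64, 0.54 and 0.72 with siNC and 0.95, 0.86 and 0.76 with siFASRL, and it was not tested there in the fit used throughout. With no filter on low values its LM3 log2 difference was 0.19 (limma adjusted p = 0.0263).

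SPRED2, which brings neurofibromin to the membrane and so limits RAS, was listed at 13.81, 13.02 and 13.15 in HepG2 siNC and 20.70, 18.19 and 19.49 in HepG2 siFASRL. In LM3 it was listed at 11.75, 10.64 and 10.80 with siNC and 12.33, 11.80 and 11.43 with siFASRL, and the groups overlap. The LM3 log2 difference was 0.09 (SE 0.057, limma adjusted p = 0.169). It passed the threshold after median-of-ratios scaling (0.20, adjusted p = 0.011), after quantile normalization (0.23, adjusted p = 0.00983) and without LM3 siNC replicate 1 (0.13, adjusted p = 0.0279). The scaling by median of ratios raised the median log2 difference of all LM3 genes by 0.11, from -0.06 to 0.05, and the LM3 difference of SPRED2 is of that size.

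ELK3, an ETS factor of the ELK group that represses SRF target genes until ERK phosphorylates it, went in opposite directions. In HepG2 it was listed at 6.69, 7.12 and 6.37 with siNC and at 25.28, 24.38 and 24.65 with siFASRL, a ratio of means of 3.68. In LM3 it was listed at 5.91, 5.88 and 5.96 with siNC and at 2.89, 2.95 and 2.70 with siFASRL, so that the siNC mean was 2.08 times the siFASRL mean. All 3 siFASRL values lie above the siNC values in HepG2 and below them in LM3. The LM3 log2 difference was -0.85 (SE 0.049, limma adjusted p = 1.72e-06), or -0.55 after quantile normalization (limma adjusted p = 2.18e-05), against 1.74 in HepG2. The effects differ by -2.59 between the lines, a value that was not tested because its HepG2 side was used in the choice.

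EGR1, the immediate-early zinc finger factor, was listed at 3.77, 3.66 and 4.04 in HepG2 siNC and at 14.34, 12.41 and 12.20 in HepG2 siFASRL. In LM3 it was listed at 2.10, 1.37 and 1.12 with siNC and at 4.11, 3.30 and 3.57 with siFASRL. The groups do not overlap in either line, and the ratio of means was 3.40 in HepG2 and 2.39 in LM3. The LM3 log2 difference was 0.90 (SE 0.13, limma adjusted p = 0.000286).

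Counted together, 9 of the 10 genes had all HepG2 siFASRL values above all siNC values, where 45.4% of tested genes did, and nothing is read from that count because the choice used it. In LM3, 9 of the 10 could be tested. Of these 7 were higher at a limma adjusted p under 0.05, where 33.9% of 7483 tested genes were, 1 (ELK3) was lower, where 43.5% were, and SPRED2 passed in neither direction. DUSP10, which acts mainly on JNK and p38, is 1 of the 7. In either direction 77.4% of tested genes passed. The shares of all genes depend on scaling, and came to 42.0% higher and 37.0% lower after median-of-ratios scaling and to 37.6% and 34.5% after quantile normalization. Under each of these 8 of the 9 were higher, SPRED2 now among them, and ELK3 was lower. With a log2 difference of at least 1 as well, DUSP1, DUSP4 and DUSP5 were higher in LM3, where 1.42% of tested genes were. Of the 9 tested 0 were lower, where 6.20% were. The median LM3 difference of the 9 tested was 0.83, beside -0.06 for all tested genes, but DUSP6 passed the filter mainly through its high group. The filter of a value of at least 5 left 6 of the genes to test and 5 of these passed. There 4 were higher, where 38.3% of 6112 tested genes were, and 1 was lower, where 38.7% were.

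**Figure D2:**
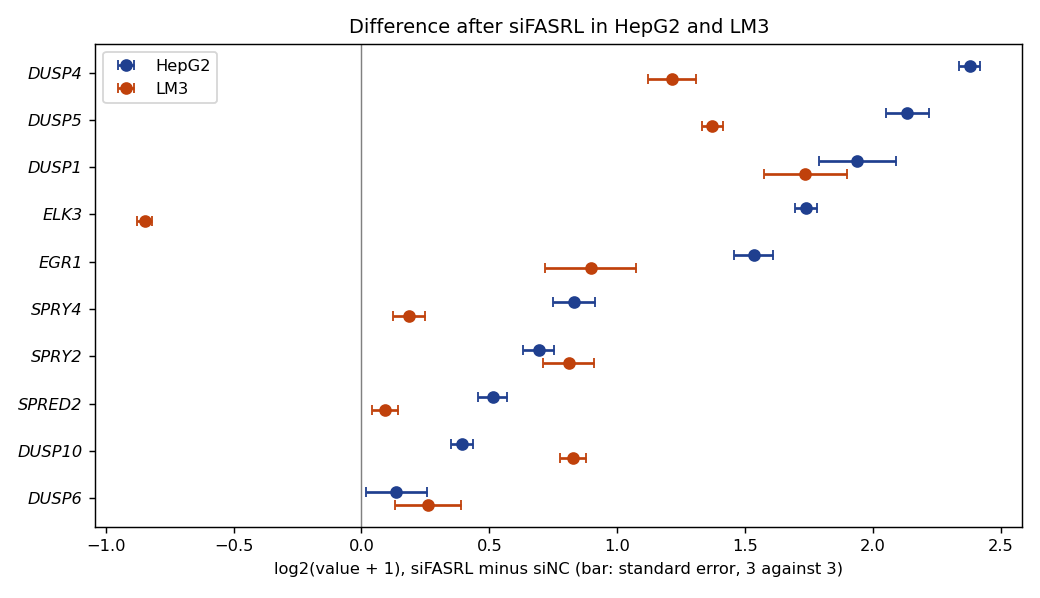
Difference of log2(value + 1) between siFASRL and siNC for the 10 genes in HepG2 and LM3, with bars for the standard error from 3 against 3 replicates. ELK3 lies at 1.74 in HepG2 and -0.85 in LM3.

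Levels under siNC were also compared between the lines. This comparison shares the HepG2 siNC libraries with the contrast used in the choice, so DUSP4 and ELK3 are given here with no test. SPRY4 is also given with no test, as it passed the filter on low values only through the HepG2 libraries and so had to differ. Of the other 7 genes, 1 was higher in LM3 at a limma adjusted p under 0.05, where 40.4% of 8176 tested genes were, and 5 were lower, where 40.6% were. Among the 5 is DUSP6, which passed the filter mainly through the HepG2 libraries. In either direction 80.9% of all tested genes passed, so a count of 6 of 7 says little of these genes. The one higher in LM3 was DUSP5, with a ratio of 1.92 and a log2 difference of 0.88 (SE 0.078, limma adjusted p = 1.1e-05). DUSP4 was listed in LM3 at 6.96 times its HepG2 level. SPRY4 and DUSP6 were 9.81 and 8.87 times as high in HepG2. ELK3 means were 6.73 in HepG2 and 5.92 in LM3. SPRY2 did not pass (log2 difference -0.07, limma adjusted p = 0.477). Its difference was -0.03 without HepG2 siNC replicate 2 and -0.12 without replicate 3, and -0.02, -0.03 and -0.17 without LM3 siNC replicates 1, 2 and 3. Quantile normalization turned its direction (0.35, limma adjusted p = 0.00723) and that of DUSP10, which went from -0.52 to 0.10 and lost its call (limma adjusted p = 0.184), and it took EGR1 from -0.95 to -0.41 (limma adjusted p = 0.0092). In HepG2 siNC the order of mean levels ran from DUSP1 (65.1) through SPRED2 (13.3), DUSP6 (9.22), DUSP5 (9.18), ELK3 (6.73), SPRY4 (6.21), EGR1 (3.82), SPRY2 (3.63) and DUSP10 (2.94) to DUSP4 (1.24). DUSP6 and DUSP5, ELK3 and SPRY4, and EGR1 and SPRY2 are neighbours in that order whose values overlap. In LM3 siNC it ran from DUSP1 (25.5) through DUSP5 (17.6), SPRED2 (11.1), DUSP4 (8.63), ELK3 (5.92), SPRY2 (3.41), DUSP10 (1.76), EGR1 (1.53) and DUSP6 (1.04) to SPRY4 (0.633), with overlap between DUSP10 and EGR1 and between EGR1 and DUSP6.

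The wider ERK pathway was counted from a list of 158 further genes, of which 106 are listed. In HepG2, 69 of 103 tested genes were higher and 27 lower at a limma adjusted p under 0.05, where 44.8% and 44.3% of 8144 tested genes were (89.1% in either direction). Their median log2 difference was 0.37, beside 0.10 for all tested genes. In LM3, 46 of 97 were higher and 35 lower, where 33.9% and 43.5% of all tested genes were, with a median of 0.15 beside -0.06. After median-of-ratios scaling the LM3 counts were 51 and 29, and after quantile normalization 51 and 26. With a log2 difference of at least 1 as well, 14 were higher and 5 lower in HepG2, where 3.61% and 6.79% of tested genes were. The LM3 counts were 6 higher and 5 lower, where 1.42% and 6.20% of tested genes were. Through the filter on low values, 2 of the genes lower in HepG2 and 2 of the higher and 3 of the lower genes in LM3 entered by 1 group only and so had to differ. The effect differed between the lines for 61 of 105 genes, where 46.7% of 8285 tested genes differed. Among the 61 are 6 genes, 4 of them ligands, that were under 1 in every LM3 library and passed the filter through HepG2 alone.

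Immediate-early genes and SRF partners are the class to which EGR1 and DUSP1 belong. In LM3 18 of 21 tested genes were higher, where 33.9% of all tested genes were, and 1 (NR4A1) was lower, with a median log2 difference of 0.73 beside -0.06 for all. In HepG2 18 of 19 were higher, where 44.8% of all tested genes were, with a median of 0.86 beside 0.10. The LM3 count holds 2 genes, FOSB and KLF2, that passed the filter on low values only through the siFASRL libraries and so had to differ. CYR61, a matrix protein gene induced through SRF, had log2 differences of 3.06 in HepG2 and 2.28 in LM3. FOSL1, an AP-1 subunit gene, had 2.20 and 2.14, JUN had 1.30 and 1.44, and ATF3 had 0.91 and 1.54, with limma adjusted p of at most 2.25e-06 in each. CTGF, named after its values were seen as the 1 gene of the group that was lower in HepG2 (-0.69), was higher in LM3 (0.93). Further log2 differences in HepG2 and LM3 were 1.16 and 0.90 for IER2, 1.26 and 0.65 for KLF6, and 1.04 and 0.85 for MAFF. FOSB was listed at 0.65, 0.58 and 0.64 in LM3 siNC and at 3.10, 2.88 and 2.69 in LM3 siFASRL. KLF2 was listed at 0.71, 0.89 and 0.85 and at 3.01, 2.86 and 2.55. NR4A1, a nuclear receptor gene, had 1.14 in HepG2 and -0.16 in LM3, where its call was lost without LM3 siFASRL replicate 1 (limma adjusted p = 0.0696), 2 (0.0631) or 3 (0.13) and without LM3 siNC replicate 2 (0.141), and after median-of-ratios scaling (0.51), while quantile normalization gave -0.26.

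The other feedback inhibitors went in both directions. In LM3 5 of 12 tested genes were higher and 4 lower, where 33.9% and 43.5% of all tested genes were. In HepG2 9 of 13 were higher and 3 lower, where 44.8% and 44.3% of all were. ERRFI1, which inhibits the EGF receptor family, had log2 differences of 1.13 in HepG2 and 0.74 in LM3, and DUSP16, a JNK phosphatase, had 0.91 and 0.68. DUSP9, a cytoplasmic ERK phosphatase related to DUSP6, fell from 91.9 to 20.2 in HepG2 (log2 difference -2.13, limma adjusted p = 8.55e-08) and from 35.0 to 9.43 in LM3 (-1.79, limma adjusted p = 3.63e-07). PHLDA1 had 1.26 in HepG2 and 0.15 in LM3, where it did not pass (limma adjusted p = 0.103) but did so without LM3 siNC replicate 1 (0.0093), in the fit with a replicate block (0.0449), after median-of-ratios scaling (a log2 difference of 0.25, adjusted p = 0.0173) and after quantile normalization (0.47, adjusted p = 0.000855), while without LM3 siFASRL replicate 1 the difference was 0.10. SPSB1, placed in this group by the list and named after its values were seen, was higher in HepG2 (0.63) and lower in LM3 (-0.40, or -0.22 after quantile normalization). Its role as a feedback inhibitor was not tested. A short list of MEK output genes, which also holds DUSP4, DUSP6, SPRY2 and SPRY4, has 4 other listed genes, and all 4 were higher in HepG2, where 44.8% of all tested genes were. These 4 are no separate set. PHLDA1 is also counted among the feedback inhibitors, EPHA2 among the receptors, and ETV4 and ETV5 among the ETS factors. In LM3 EPHA2 was higher (0.48) and ETV5 lower (-0.28), where 33.9% and 43.5% of all tested genes were, and PHLDA1 and ETV4 did not pass. The LM3 difference of ETV4, named after its values were seen, was 0.12 (limma adjusted p = 0.104), and it passed without LM3 siNC replicate 1 (0.16, adjusted p = 0.0212) and after median-of-ratios scaling (0.23, adjusted p = 0.00758). In each of these 2 fits 3 of the 4 were higher. The LM3 call of ETV5 was lost without LM3 siFASRL replicate 2 (limma adjusted p = 0.0656) or 3 (0.0617) and without LM3 siNC replicate 3 (0.0577). Quantile normalization turned the direction of its LM3 difference (0.10, limma adjusted p = 0.322). In HepG2 ETV5 (0.15) lost its call without HepG2 siFASRL replicate 1 (0.0722), 2 (0.0911) or 3 (0.0785) and without HepG2 siNC replicate 1 (0.09) or 3 (0.142).

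Upstream of ERK, 8 of 9 ligand genes were higher in HepG2, where 44.8% of all tested genes were, and IGF2 was lower (-1.19), where 44.3% were. In HepG2 EREG rose from 3.44 to 17.2, AREG from 5.89 to 24.0, NRG1 from 1.84 to 7.21 and HBEGF from 2.03 to 6.91, all 4 of them genes of EGF receptor family ligands. In LM3 5 of the 9 could be tested, of which 3 were higher and 1 lower, where 33.9% and 43.5% of all tested genes were. FGF2 had log2 differences of 0.60 in HepG2 and 0.65 in LM3, PDGFB 0.22 and -0.43, and VEGFA 0.17 and 0.34. The HepG2 call of VEGFA was lost without HepG2 siFASRL replicate 1 (limma adjusted p = 0.0612), 2 (0.0683) or 3 (0.054) and without HepG2 siNC replicate 3 (0.106, with a difference of 0.11), and after quantile normalization (0.981), which also ended the LM3 call of PDGFB (0.865). In LM3 AREG and EREG were at most 0.52 in every library and were not tested. HBEGF had an LM3 log2 difference of 0.27 (limma adjusted p = 0.00379), or 0.61 after quantile normalization, and NRG1 of 0.08 (limma adjusted p = 0.345), or 0.52 after quantile normalization (0.000493). The NRG1 difference was 0.15 without LM3 siFASRL replicate 1, 0.01 without LM3 siFASRL replicate 2 and 0.04 without LM3 siNC replicate 1, and it was 0.13 with a pseudocount of 0.1 and 0.15 after median-of-ratios scaling. Of 13 receptor genes 7 were higher and 6 lower in HepG2, and of 11 tested in LM3 5 were higher and 5 lower, near the shares of all tested genes (44.8% and 44.3% in HepG2, 33.9% and 43.5% in LM3). EGFR (0.57 and 0.37), AXL (0.87 and 0.63), IGF1R (0.87 and 0.39) and FGFR1 (0.42 and 0.54), named after their values were seen, were higher in both HepG2 and LM3. ERBB3 (-1.10 and -1.48), FGFR3 (-0.64 and -0.93) and FGFR4 (-1.20 and -1.17) were lower in both HepG2 and LM3. So were ERBB2 (-0.91 and -0.63) and INSR (-0.29 and -0.32), named after their values were seen. After quantile normalization 5 receptor genes were lower in HepG2. KLB, the co-receptor of FGF19, was listed at 8.11 with siNC and 0.763 with siFASRL in HepG2, where it passed the filter only through the siNC libraries.

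Among 16 adaptor and RAS genes HepG2 had 10 higher and 5 lower with siFASRL, where 44.8% and 44.3% of all tested genes were. LM3 had 6 higher and 8 lower, where 33.9% and 43.5% of all were, and 1 of the 8 passed the filter on low values only through the siNC libraries and so had to differ. After quantile normalization 3 were lower in LM3. Examples are NRAS (0.83 and 0.76), IRS1 (0.85 and 0.84) and IRS2 (1.42 and 0.58), which were higher in both lines, and SOS1 (-0.88 and -0.66), which was lower in both. Of 9 kinase and scaffold genes, 4 passed as higher and 3 as lower in HepG2, against 3 and 4 in LM3, beside shares of all genes of 44.8% and 44.3% in HepG2 and 33.9% and 43.5% in LM3. The 4 became 2 without HepG2 siFASRL replicate 2 or 3, without HepG2 siNC replicate 1 or 3 and after quantile normalization. MAPK3, the gene of ERK1, had -0.37 in HepG2 and -0.60 in LM3, and KSR1, a scaffold of the cascade, had -0.66 and -0.69. RPS6KA1 was lower in LM3 (-0.46) and did not pass in HepG2 (0.13, limma adjusted p = 0.0915), where it passed without HepG2 siNC replicate 2 (0.21, adjusted p = 0.0068) and had a difference of 0.09 without HepG2 siNC replicate 1. Of the ETS factors other than ELK3, HepG2 had 8 of 11 higher and 3 lower, where 44.8% and 44.3% of all tested genes were. LM3 had 3 of 10 higher and 3 lower, where 33.9% and 43.5% were, or 1 lower without LM3 siNC replicate 3 and 5 higher after quantile normalization. ETS1 (0.69 in HepG2 and 0.49 in LM3) and ETS2 (0.62 and 0.49) were higher in both. EHF was at 1.41 to 1.92 with siNC and 0.55 to 0.65 with siFASRL in HepG2 and at 2.19 to 2.38 and 0.31 to 0.42 in LM3, and in each line it passed the filter only through the siNC libraries. In the JNK and p38 pathway, on which DUSP1 and DUSP10 act, 9 of 13 were lower and 3 higher in LM3, where 43.5% and 33.9% of all tested genes were. Of the 9, 1 passed the filter only through the siNC libraries and so had to differ. The 9 became 7 after median-of-ratios scaling and 6 after quantile normalization. In HepG2 5 were lower and 5 higher, where 44.3% and 44.8% of all were, with a median of 0.05. MAP2K6 (-0.43 and -2.17), MAPK11 (-0.81 and -0.91) and MAPK8 (-0.56 and -0.59) were lower in HepG2 and LM3. MAP2K3 (0.92 and 0.25), MAP2K7 (0.45 and 0.36) and MAPKAPK3 (0.46 and 0.25), named after their values were seen, were higher in both. The LM3 call of MAP2K3 was lost without LM3 siFASRL replicate 1 (limma adjusted p = 0.0521), and without LM3 siNC replicate 1 the LM3 difference of MAPKAPK3 was 0.17.

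**Figure D3:**
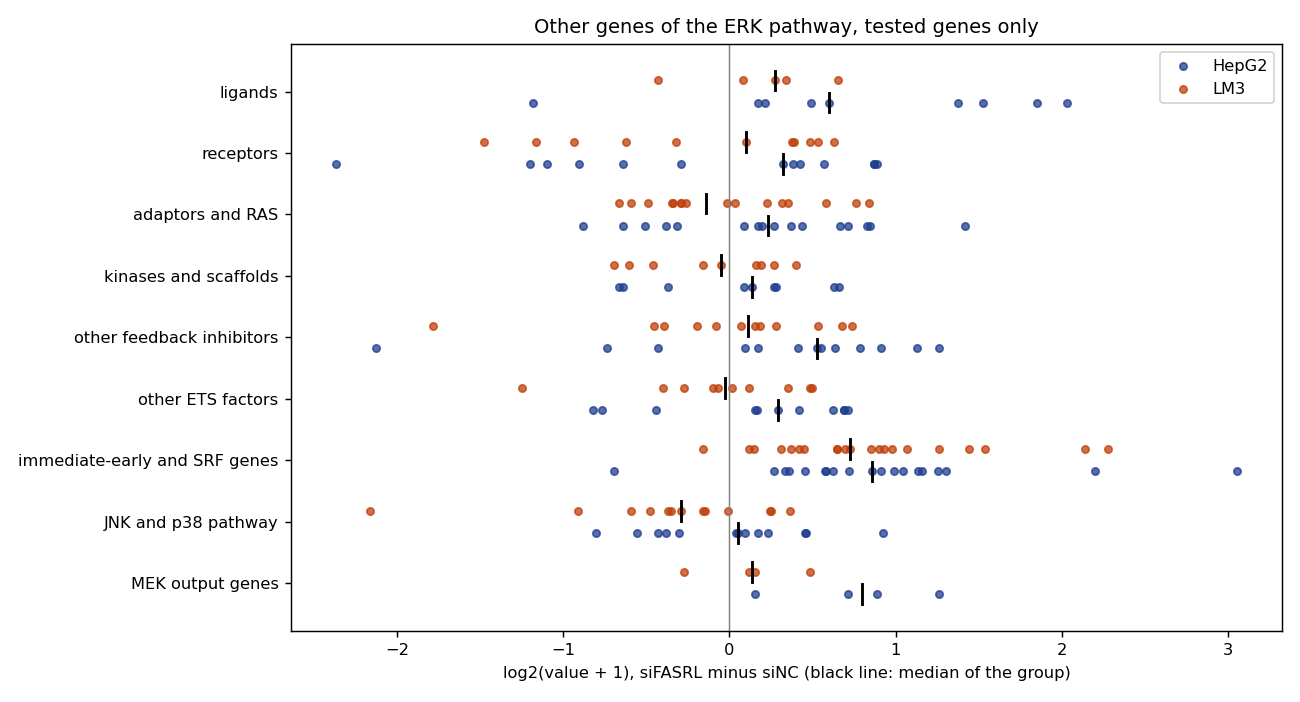
Difference of log2(value + 1) between siFASRL and siNC for tested genes of the wider pathway list by group, with a point for each gene in HepG2 and LM3 and black lines for group medians. The immediate-early and SRF genes have medians of 0.86 in HepG2 and 0.73 in LM3.

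Likeness to DUSP4 and ELK3 was measured by Pearson's r of log2(value + 1) over the 12 libraries, which fall into 4 groups, and is given as a description. DUSP4 was most like PPP1R14B (0.996), PQBP1 (0.995), HMG20B (0.994), TNPO1 (0.993) and CDK16 (0.992). After each line's mean was subtracted it was most like NOSIP, ITPRIP, BICD2, KLF6 and TRIO, each at 0.997. Of the other 9 genes DUSP5 was nearest to it over the 12 libraries, at rank 594 of 8284 (0.912), while DUSP1 (0.213) and EGR1 (0.0958) ranked 3315 and 3600 and DUSP6 (-0.556) was last of the 9. With the line mean subtracted DUSP5 ranked 38 (0.992), EGR1 463 (0.963), DUSP1 503 (0.960), SPRY4 812, SPRY2 1254, SPRED2 1319, DUSP10 2508 (0.785), ELK3 3424 (0.600) and DUSP6 3523 (0.570). ELK3 was most like CSF1 (0.995), BCAR1 (0.992), TUBB (0.988), DMD (0.987) and TENM3 (0.986), and after the line mean was subtracted ACSL5 (0.995), CSF1 (0.993), PPP2R2C (0.992), LBH (0.991) and EPB41L1 (0.990). Of the other 9 genes SPRED2 was nearest to ELK3 on both scales, at rank 189 (0.901) and then 753 (0.778), and DUSP4 (-0.134) and then DUSP10 (-0.011) were farthest.

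The liver label was checked against 9 listed liver markers. In HepG2, 7 of the 9 were lower with siFASRL at a limma adjusted p under 0.05, where 44.3% of all tested genes were, among them ALB (815 with siNC and 235 with siFASRL) and AFP (605 and 254), in the libraries in which DUSP1, DUSP4 and DUSP5 were higher. APOA2 was higher (630 and 757, limma adjusted p = 0.0149), a call lost without HepG2 siFASRL replicate 2 (0.0523) or 3 (0.0535), without HepG2 siNC replicate 3 (0.0597), in 1 fit of all 12 libraries (0.226) and after quantile normalization (0.59). KRT18 (695 and 759) did not pass (limma adjusted p = 0.0657) but did so without HepG2 siNC replicate 2 (0.0254) and, in the other direction, after quantile normalization (0.0296). Summed over the 9, the values came to between 4637 and 5063 with siNC and between 3123 and 3151 with siFASRL. In LM3 the secreted markers ALB, APOA1, TTR, TF and AFP did not exceed 0.62 in any library and SERPINA1 and APOA2 reached at most 1.73 and 1.47, while HNF4A (14.3 with siNC and 6.71 with siFASRL) and KRT18 (940 and 756) were present. With most markers this low, the check says little of the liver label of LM3, which is taken from the authors. Of 7 markers of other cell types 4 are listed, and their values summed to between 53.9 and 71.4 in HepG2 and between 20.6 and 28.2 in LM3, with CD68 the most abundant and the means of VWF and DCN at most 0.267 and 0.913. COL1A1 was at 20.1 with siNC and 15.7 with siFASRL in HepG2 and at 9.95 and 3.01 in LM3. The part of these markers in the changes of the 10 genes was not tested.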

How the data were processed

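RNA-seq libraries of HepG2 and LM3 with siFASRL or siNC were analysed as 12 libraries in 4 groups, taken from the sample labels. The authors filtered reads with SOAPnuke, mapped them with HISAT2, aligned them to a coding gene set with Bowtie2 and estimated levels with RSEM. The deposited signal values are normalized levels with 2 decimals, and whether they are FPKM or TPM is not given in the sources used here. How the 8842 listed genes were chosen is not given either, so each percentage refers to listed genes. The submitters' notes name hg19, while chromosome accessions in the tables are those of GRCh38. Symbols turned into dates, 17 of them, were restored by gene identifier. In 1 table, 6 columns that repeat LM3 libraries were left out.

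The test was limma (version 3.58.1, R 4.3.3), run on log2(value + 1), so differences of low genes are understated. A gene entered a fit if 3 or more of its libraries reached 1, and p was adjusted by Benjamini-Hochberg over all genes tested. The fit was tested on simulated data. Alternatives were a pseudocount of 0.1, no filter, a minimum of 5, median-of-ratios scaling, quantile normalization, a replicate block, 1 fit of all 12 libraries and each replicate left out. Separate fits covered the 6 libraries of each line and the 6 siNC libraries, and an interaction covered all 12. Named wider genes are, per pathway group, the 3 with the largest LM3 difference and any with a log2 difference of at least 1 and adjusted p under 0.05 in either line. Other wider genes were named after their values were seen and are marked so in the results. The list of MEK output genes was written from memory. The 10 genes and the lists were chosen with earlier results of these data known. Overlapping genes come from GENCODE v29 and promoters from RefSeq.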

Additional observations from a re-analysis of the deposited data

Results flagged for a closer look

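ELK3 was flagged because all its siFASRL values lie above siNC in HepG2 and below siNC in LM3, with an LM3 effect minus HepG2 effect of -2.59 on the log2 scale, a difference that was not tested.

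Genes of the wider list were flagged where a limma interaction found the effects to differ between the lines by at least 1 on the log2 scale. LM3 effect minus HepG2 effect was -2.14 for EREG, -1.91 for AREG, -1.44 for NRG1 and -1.10 for HBEGF among ligands. It was -1.11 for PHLDA1 and -1.03 for SPSB1, which the wider list places under other feedback inhibitors. It was -1.30 for NR4A1 and -1.73 for MAP2K6, and it was 2.29 for KLB and 1.63 for CTGF. After quantile normalization it was -0.81 for PHLDA1 and -0.90 for SPSB1, and for SPSB1 it was also under 1 in size after median-of-ratios scaling (-0.97) and without LM3 siNC replicate 3 (-0.99). AREG, EREG and KLB were under 1 in every LM3 library and entered the interaction through HepG2 alone, so their LM3 effect is held near 0.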

How the results depend on the processing

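Of the counts of genes that passed the threshold, the LM3 count for the 10 genes moved from 8 to 5 with a minimum value of 5, where only 6 genes were tested. It was 9 of 9 after median-of-ratios scaling and after quantile normalization, 9 of 10 in 1 fit of all 12 libraries, 8 with a replicate block and 7 to 8 when each replicate was left out. Of all genes tested in LM3, 77.4% passed as reported. The shares higher and lower were 42.0% and 37.0% after median-of-ratios scaling and 37.6% and 34.5% after quantile normalization. They were 31.0% and 42.3% in 1 fit of all 12 libraries and 33.1% and 42.9% with the block. Counts in either direction therefore say little of these genes. The wider list gave 81 of 97 genes in LM3 and 96 of 103 in HepG2 as reported. Of all tested genes 77.4% and 89.1% passed there. The list gave 80 and 96 after median-of-ratios scaling and with the replicate block, and 77 and 88 after quantile normalization. Of all genes tested in HepG2, 44.3% were higher and 44.3% lower after median-of-ratios scaling. The shares were 46.0% and 44.4% with the block and 43.7% and 40.3% after quantile normalization. With a minimum of 5 the list gave 70 of 82 and 84 of 91. In those fits 38.3% of all tested genes were higher and 38.7% lower in LM3, and 48.5% and 39.3% in HepG2. With replicates left out the counts were 72 to 82 and 88 to 95. The interaction gave 61 of 105 as reported, where 46.7% of all tested genes passed. It gave 57 after median-of-ratios scaling, 60 after quantile normalization, 59 with the block and 55 to 67 with replicates left out. Shares of all genes in these other interaction fits are not given. Deviations of same-numbered replicates correlated at 0.356, 0.416 and -0.244 in HepG2 and at -0.08, 0.133 and -0.205 in LM3, so the numbers were not taken as pairs.

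Under quantile normalization the siNC differences of DUSP10 (0.10), SPRY2 (0.35) and ELK3 (0.036), the LM3 difference of ETV5 (0.10) and the HepG2 differences of APOA2 (-0.039) and KRT18 (-0.19) changed sign, SPRY2 with an adjusted p of 0.00723. That normalization moved the median siNC difference of all tested genes by 0.14, and the cause of the sign changes was not tested. It raised the HepG2 difference of DUSP10 from 0.39 to 0.67. It also shrank called LM3 differences by over 1.5 times for FGFR3 (-0.62), KSR1 (-0.45), SPSB1 (-0.22) and MAPK11 (-0.56) and HepG2 differences for MAPK8 (-0.33) and MAPK11 (-0.44). A pseudocount of 0.1 took MAPK11 in HepG2 to -1.24. Other named genes whose calls depend on a setting are given with those settings in the results. ETV5 also lost its LM3 call after median-of-ratios scaling (adjusted p = 0.0727) and its HepG2 call in 1 fit of all 12 libraries (0.0733). Depth is unknown, so counting error cannot be given.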

Other observations

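Low values of secreted liver proteins differed among LM3 libraries. SERPINA1, listed at 1310 to 1435 in HepG2 siNC, was at 1.73 and 1.26 in LM3 siNC replicates 2 and 3 but at 0.08 in replicate 1, and at 0.37 in LM3 siFASRL replicate 1 but 0.03 in replicates 2 and 3. ALB was at 0.62 and 0.40 in the former pair, 0.06 in LM3 siNC replicate 1, 0.19 in LM3 siFASRL replicate 1 and 0 in the remaining LM3 libraries.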
